A study of Mus musculus with 18 samples.

Results

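The 8 marker genes of airway ciliated cells described here were followed in fetal mouse lung near the end of gestation: Foxj1, Rfx3, Dnah5, Dynlrb2, Rsph1, Tekt1, Tppp3 and 1110017D15Rik. They were taken by gene symbol and not by a cut on their values, but with earlier results of these data known. On the array 9 probe sets carry one of these 8 symbols, of 45037 probe sets and 18193 symbols in all. Rfx3 has 2 probe sets and each other gene has 1, and for Rfx3 the brighter probe set is the one meant unless the other is named. Lung RNA of BALB/c fetuses was hybridized to 18 MOE430 2.0 arrays, with 3 arrays in each of 6 groups and on every array, by the labels and methods, a pool of 3 fetuses of 1 sex and treatment from distinct litters. The groups were flutamide-treated males (18 flut), males (18 m) and females (18 f) taken at gestational day 18 (GD18), and the same 3 kinds of fetus at GD17 (17 flut, 17 m and 17 f). Flutamide, an antagonist of the androgen receptor, was given to the dam and reached the fetus from her. Dams of both flutamide groups were injected under the skin with 1 mg in 200 µl every day from GD10 until the day before the lungs were taken, and dams of all 4 other groups received vehicle on the same days. No flutamide-treated females were analysed here.

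Motile cilia line the conducting airways, where their beat moves mucus out of the lung. Each cilium is built on a basal body and holds an axoneme, a ring of doublet microtubules around a central pair, with dynein arms that slide the doublets against each other and radial spokes that pass signals from the central pair to the arms. In mouse airway epithelium a progenitor becomes a secretory or a multiciliated cell according to Notch signalling, the multiciliated cell then makes many centrioles, and Foxj1 together with factors of the RFX family turns on the genes of the axoneme.

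Among the 8 genes, Foxj1 (chr11:116330704-116335499) encodes the forkhead factor that drives motile ciliogenesis, and Rfx3 (chr19:27761721-28014669) encodes a winged-helix factor that binds the X-box of cilium gene promoters. Dnah5 (chr15:28154854-28472045) encodes a heavy chain of the outer dynein arm, and loss of it in humans causes primary ciliary dyskinesia. Dynlrb2 (chr8:116505015-116515915) encodes a light chain of the roadblock family of dyneins, Rsph1 (chr17:31255019-31277296) a protein of the radial spoke head and Tekt1 (chr11:72344717-72362442) a tektin, a filament protein that runs along the doublets. Tppp3 (chr8:105467492-105471422) encodes a protein that binds and bundles microtubules and is widely used to mark ciliated cells. The product of 1110017D15Rik (chr4:41505005-41517366) was described in spermatids and in ciliated airway epithelium. These positions are those of RefSeq on GRCm38.p6, since the array file gives none.

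Because the X-box is an imperfect inverted repeat of GTTGCC, the promoters of the ciliated cell genes were read for it, and 3 that hold it before the start are printed. A RefSeq promoter window of GRCm38.p6, running from 250 bases before to 50 after a transcription start, was at hand for 5 of the 8 genes (Dynlrb2, Tekt1, 1110017D15Rik, Rfx3 and Dnah5). The stretches below end before the start site, and capitals mark each GTTGCC on either strand (written GGCAAC where it lies on the other strand) and each such inverted pair, searched on both strands as GTNNCC, 0 to 3 bases, then NGNAAC.
Dynlrb2, chr8:116504897-116504996, plus strand: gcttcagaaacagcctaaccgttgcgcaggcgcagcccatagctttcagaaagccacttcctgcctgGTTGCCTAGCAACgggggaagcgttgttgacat
1110017D15Rik, chr4:41507765-41507849, minus strand: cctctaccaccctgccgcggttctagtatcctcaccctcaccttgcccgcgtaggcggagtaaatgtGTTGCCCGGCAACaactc
Tekt1, chr11:72361883-72361971, minus strand: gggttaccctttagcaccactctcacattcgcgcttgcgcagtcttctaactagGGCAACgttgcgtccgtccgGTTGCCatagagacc
In Dynlrb2 the pair began at position -51 relative to the start, and in 1110017D15Rik at -18 relative to the downstream of its 2 starts. Tekt1 held GTTGCC on both strands in 1 of its 2 windows but no pair that fits these letters, Rfx3 held a single GTTGCC after the start, and Dnah5 held none. At least 1 GTTGCC was thus present in 4 of the 5 genes and a pair in 2 of the 5, while 14.1% of all 27025 genes with a window held GTTGCC and 5.94% held a pair. GTTGCC lies inside many of the pairs, so the counts overlap. The forkhead core TGTTTAC, searched on both strands, was in none of the 5 genes and in 4.05% of all genes. These matches describe letters only and no binding was measured.

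As a check on the arrays as a whole, Xist and 3 Y-linked genes followed the labelled sex in 17 of 18 pools, and in 18 flut 3 Xist stood at 11.95 on the log2 scale, against 8.15 and 8.08 in 18 flut 1 and 2, with the Y-linked Eif2s3y at 7.21, against 8.04 and 8.16. The library labelled 18 flut 3 thus goes against its label of a male pool in part, with Xist near the 12.33 to 12.51 of 18 f. Without it the counts of the 8 genes called did not change, at 4 in 18 flut against 17 flut and 0 in 18 flut against 18 m, in 18 flut against 18 f and in the flutamide by day interaction. In 17 f 2, 17 f 3 and 17 m 3 the 5 measured genes of the exocrine pancreas averaged 10.64, 10.61 and 10.15, against 5.86 to 6.35 in the other pools. In the same pools 5 genes of squamous epithelium averaged 10.22, 10.21 and 8.27, against 6.15 to 8.08 in the others. The 5 liver genes averaged 13.37 in 18 m 3, the highest of the 18 pools, and their highest pool was at 12.31 in 18 flut, 12.01 in 17 f and 11.99 in 17 m. The labels give no array batch. Since whole lung was measured, fewer ciliated cells and less RNA per ciliated cell cannot be told apart in any value below.

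Most of the ciliated cell genes were higher at GD18 than at GD17, and Rfx3 was not. In males 6 of the 8 were higher at GD18 and none was lower, in females 7 were higher and none lower, and in flutamide-treated males 4 were higher and none lower, at a Benjamini-Hochberg adjusted p under 0.05 in limma. Over all probe sets, 12.4% were called higher in males, 16.5% in females and 9.61% in flutamide-treated males, and with 1 probe set per gene, as the 8 genes were counted, 17.7%, 17.2% and 13%. The median difference of the 8 genes, GD18 minus GD17, was 0.34 on the log2 scale in flutamide-treated males, 0.85 in males and 0.79 in females, against medians over all probe sets of -0.01, 0.01 and 0.02. Samples of the 3 comparisons do not overlap.

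**Figure D1:**
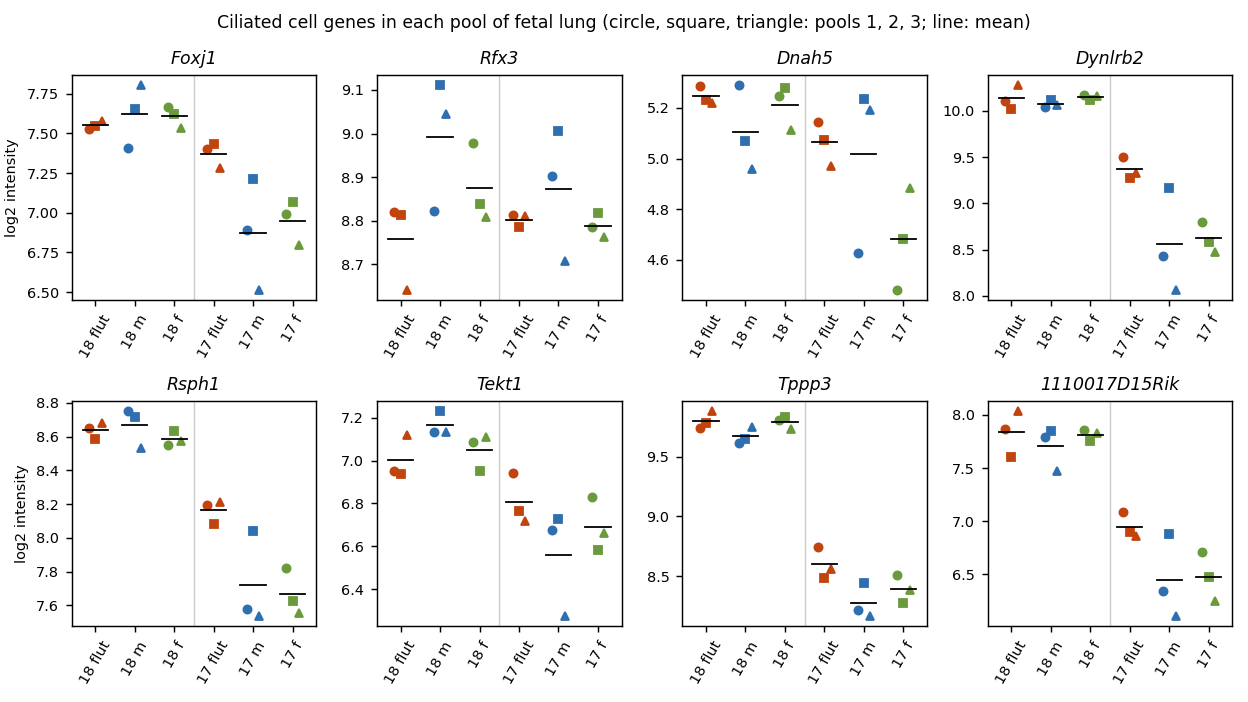
Log2 intensity of each of the 8 genes (y axis) in each pool, with groups 18 flut, 18 m, 18 f, 17 flut, 17 m and 17 f along the x axis. Points are pools 1 (circle), 2 (square) and 3 (triangle), and lines are group means. For Dynlrb2 all 9 pools of GD18 lie above all 9 of GD17, while for Rfx3 the days overlap.

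Dynlrb2 had the largest differences of the 8 in males and females, while in flutamide-treated males Tppp3 and 1110017D15Rik changed more. Its intensity was 1098, 1035 and 1244 in the pools of 18 flut, 1055, 1107 and 1068 in 18 m and 1150.4, 1106 and 1142 in 18 f. At GD17 it was 724, 621 and 644 in 17 flut, 346, 574 and 268 in 17 m and 446, 384 and 356 in 17 f. Every pool of GD18 was thus above every pool of GD17, and the flutamide pools were the highest of GD17. The GD18 level was 1.70-fold that of GD17 in flutamide-treated males (adjusted p = 0.0062, limma), 2.86-fold in males (2.3e-05) and 2.88-fold in females (6.6e-06).

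Tppp3 rose by a similar factor and most evenly over the 3 kinds of fetus. At GD18 its intensity was 858, 879.9 and 944 in 18 flut, 783, 804 and 861 in 18 m and 897, 912 and 852 in 18 f, and at GD17 429.7, 358 and 377 in 17 flut, 297, 349 and 287 in 17 m and 365, 310.2 and 333 in 17 f. No pool of GD17 came near the lowest pool of GD18. The GD18 level was 2.31-fold that of GD17 in flutamide-treated males, 2.63-fold in males and 2.64-fold in females (adjusted p = 7.9e-07, 2.2e-07 and 6.2e-08, limma).

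1110017D15Rik, whose promoter pair is printed above, had intensities of 234, 194 and 262 in 18 flut, 222, 230.2 and 177 in 18 m and 232, 215 and 227 in 18 f. At GD17 they were 136, 119.7 and 116 in 17 flut, 81.1, 118 and 69.0 in 17 m and 105, 88.9 and 75.9 in 17 f. The days did not overlap, and pool 2 of 17 m lay inside the range of 17 flut. The rise was 1.85-fold in flutamide-treated males, 2.40-fold in males and 2.52-fold in females (adjusted p = 0.0012, 5.8e-05 and 1.2e-05, limma).

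Rsph1, of the radial spoke head, measured 402, 385 and 409.5 in 18 flut, 431, 421 and 369.6 in 18 m and 375, 397 and 382 in 18 f. At GD17 it measured 293, 271 and 296 in 17 flut, 191, 264 and 186 in 17 m and 226, 197 and 188 in 17 f, so that all pools of 17 flut stood above all pools of both vehicle groups of that day. The rise was 1.39-fold in flutamide-treated males, 1.93-fold in males and 1.89-fold in females (adjusted p = 0.0051, 1.7e-05 and 6.7e-06, limma).

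Foxj1, the factor that drives motile ciliogenesis, changed by a smaller factor than these 4 genes. It measured 185, 187 and 191 in 18 flut, 169.8, 202 and 224 in 18 m and 203, 197 and 185 in 18 f, and at GD17 169, 172 and 156 in 17 flut, 119, 148 and 91.5 in 17 m and 127, 134 and 111 in 17 f. Of the GD17 pools only 17 flut 2 reached into the range of 18 m, just above its lowest pool. The GD18 level was 1.68-fold that of GD17 in males (adjusted p = 0.00064, limma) and 1.58-fold in females (0.0010). In flutamide-treated males the pools of the days did not overlap, but the ratio was 1.13 and was not called (adjusted p = 0.44).

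Tekt1 changed the least of the genes that rose in both vehicle groups. Its intensity was 124, 123 and 139 in 18 flut, 140.3, 150.3 and 141 in 18 m and 136, 124 and 138 in 18 f, against 123, 109 and 105 in 17 flut, 102, 106 and 77.4 in 17 m and 114, 95.8 and 101 in 17 f. The highest pool of 17 flut was level with the lowest of 18 flut, and in males and females the days were apart. The GD18 level was 1.52-fold that of GD17 in males (adjusted p = 0.00055, limma) and 1.28-fold in females (0.015), and 1.15-fold in flutamide-treated males, which was not called (0.24). The call in females was lost without 17 f 2 (adjusted p = 0.072), 18 f 1 (0.053) or 18 f 3 (0.057), and also without 17 f 2, 17 f 3 and 17 m 3 together (0.20).

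Dnah5 was the dimmest of the 8, at a mean of 5.05 on the log2 scale, against a median of 6.38 over all probe sets. Its pools measured 39.0, 37.6 and 37.2 in 18 flut, 39.2, 33.6 and 31.1 in 18 m and 37.9, 38.9 and 34.6 in 18 f, and 35.4, 33.7 and 31.4 in 17 flut, 24.7, 37.7 and 36.5 in 17 m and 22.3, 25.7 and 29.5 in 17 f. The difference between the days was called in females, with a GD18 level 1.45-fold that of GD17 (adjusted p = 0.0059, limma). The ratio was 1.13 in flutamide-treated males and 1.06 in males (adjusted p = 0.43 and 0.71), and the sex by day interaction of Dnah5, GD18 difference minus GD17 difference, was -0.44 with a standard error of 0.19 (adjusted p = 0.21), where 6.54% of all probe sets were called.

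Rfx3 did not follow the others. Its brighter probe set measured 452, 450.0 and 399 in 18 flut, 452, 553 and 529 in 18 m and 504, 458 and 449 in 18 f, and 449.6, 441 and 449 in 17 flut, 479, 514 and 418 in 17 m and 441, 451 and 434 in 17 f. The days overlapped in each kind of fetus, and the log2 differences of GD18 minus GD17 were -0.04 (95% confidence interval -0.23 to 0.14) in flutamide-treated males, 0.12 (-0.06 to 0.30) in males and 0.09 (-0.10 to 0.27) in females, none of them called. The dimmer probe set of Rfx3, at a mean of 5.73 on the log2 scale, was higher in 18 f than in 17 f by 0.41 (adjusted p = 0.0066, limma) and gave 0.02 in males and 0.02 in flutamide-treated males.

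**Figure D2:**
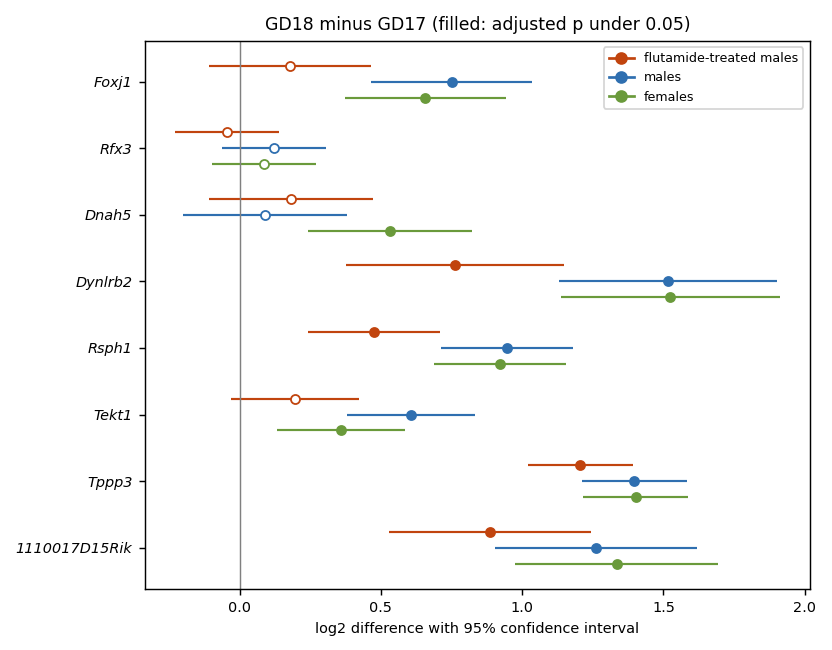
Log2 difference of GD18 minus GD17 (x axis) of each gene (rows) in flutamide-treated males, males and females, with 95% confidence intervals from limma. Filled points have an adjusted p under 0.05, and for Dynlrb2 the values are 0.76, 1.52 and 1.52.

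At GD17, Dynlrb2 and Rsph1 passed the test with more signal in 17 flut than in 17 m, and the other 6 genes did not pass the test. The 2 calls of 8, with none lower, stand beside 1.28% of all probe sets called higher (1.69% of genes, each taken by its brightest probe set). The median difference was 0.38, against 0.02 over all probe sets. Dynlrb2 was higher by 0.81 on the log2 scale (standard error 0.18, 1.76-fold, adjusted p = 0.024, limma), and Rsph1 by 0.45 (standard error 0.11, 1.36-fold, adjusted p = 0.037). These standard errors rest on a spread shared by all groups of the fit. For Dynlrb2 the SD over pools was 0.56 in 17 m and 0.12 in 17 flut. With only 17 flut and 17 m in the fit, neither gene was called. Foxj1 (difference 0.50, adjusted p = 0.052), 1110017D15Rik (0.51, 0.11), Tppp3 (0.32, 0.053) and Tekt1 (0.25, 0.21) had positive differences that did not pass, and Dnah5 (0.05) and Rfx3 (-0.07) lay near 0. The 3 pools of 17 flut lay above all 3 of 17 m in 4 genes (Foxj1, Dynlrb2, Rsph1 and Tppp3), and 14.6% of all probe sets showed this pattern in the same direction.

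The males of GD17 differed widely among themselves, and the calls depended on single pools. The median SD over pools of the 8 genes was 0.10 in 17 flut, 0.31 in 17 m and 0.14 in 17 f. With each gene centred on its mean over the 18 pools, the mean of the 8 genes was -0.56, -0.18 and -0.70 in 17 m 1, 2 and 3, against -0.04, -0.17 and -0.17 in the pools of 17 flut. Pool 17 m 2 thus stood level with the lower flutamide pools, while 17 m 3 was the lowest of the 9 pools of GD17 in 7 of the 8 genes, Dnah5 being the exception. Without 17 m 2 there were 5 of the 8 genes called higher in 17 flut, and without any one of the other pools of these 2 groups (17 flut 1, 2 or 3, 17 m 1 or 17 m 3) none was called.

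Markers of alveolar type II, alveolar type I and club cells moved with the ciliated cell genes over these pools, and their part in the difference was not tested. Those of basal and neuroendocrine cells did not. On the log2 scale the 4 basal cell genes averaged 6.45 to 6.91 in 17 flut and 6.64, 6.83 and 7.67 in 17 m 1, 2 and 3. The 3 measured neuroendocrine genes averaged 4.91 to 5.06 in 17 flut and 4.83, 4.91 and 5.27 in 17 m. The 7 measured genes of alveolar type II cells averaged 10.13 to 10.40 on the log2 scale in the pools of 17 flut and 9.39, 10.06 and 9.14 in 17 m 1, 2 and 3, and 2 of the 7 (Slc34a2 and Napsa) were called higher in 17 flut. The 5 genes of alveolar type I cells averaged 8.84 to 9.03 in 17 flut and 8.57, 8.90 and 8.50 in 17 m 1, 2 and 3. Of these 5, 2 (Ager and Hopx) were called higher in 17 flut. The 5 club cell genes averaged 9.47 to 9.73 in 17 flut and 8.88, 9.40 and 8.62 in the pools of 17 m, with 1 of the 5, the secretoglobin Scgb1a1, called higher by 1.73. In 17 m 3, the pool with pancreas genes at 10.15, the alveolar type II and club cell means were the lowest of the 3 males. Without 17 m 3 and the 2 female pools of that kind, Dynlrb2 was at 0.57 (adjusted p = 0.068) and Rsph1 at 0.35 (0.11).

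**Figure D3:**
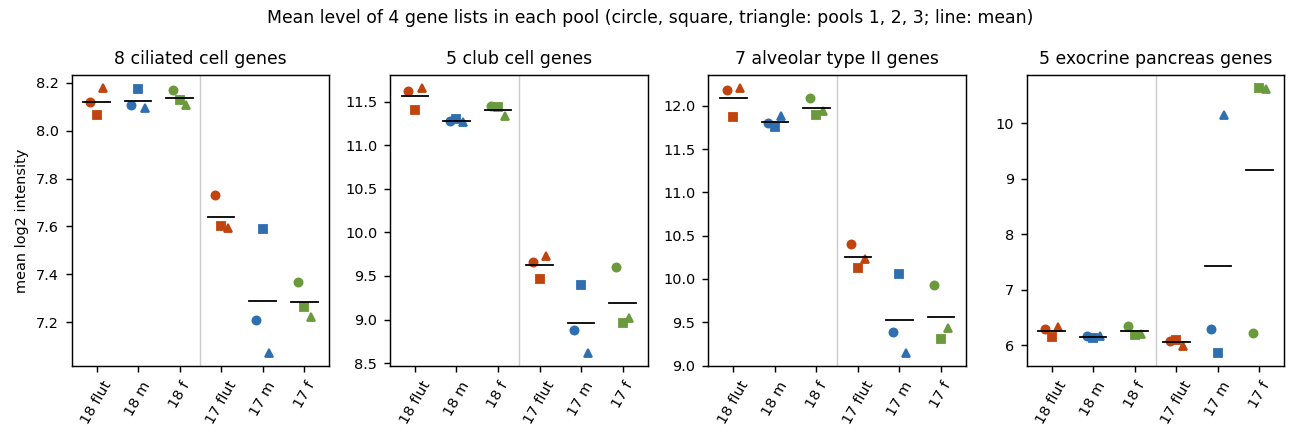
Mean log2 intensity (y axis) of the 8 ciliated cell genes, 5 club cell genes, 7 alveolar type II genes and 5 exocrine pancreas genes in each pool, by group (x axis). Points are pools 1 (circle), 2 (square) and 3 (triangle) and lines are group means, and 17 m 2 stands above 17 m 1 and 17 m 3 in the first 3 panels.

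At GD18 no difference between flutamide-treated males and males was detected in these genes. None of the 8 was called in 18 flut against 18 m, by limma, while 3.95% of all probe sets were called in either direction, and 1 of the 8 reached an unadjusted p under 0.05. That gene was Rfx3, with a difference of -0.24 (95% confidence interval -0.42 to -0.05, adjusted p = 0.16). For Dynlrb2 the difference was 0.06 (-0.33 to 0.45), for Rsph1 -0.03 (-0.26 to 0.21) and for Foxj1 -0.07 (-0.36 to 0.21). The pools of 18 flut lay below all those of 18 m in 2 of the 8 genes, Rfx3 and Tekt1, a pattern that 10.2% of all probe sets showed. The upper bound for Rsph1 lies below the GD17 value of 0.45, and that for Dynlrb2 below 0.81, but these GD17 values carry error too. For Dynlrb2 the GD17 interval began at 0.43, so the intervals of the days overlapped. For Rsph1 it began at 0.212, just above the GD18 upper bound of 0.207. Both genes are named here because they were called at GD17. The days were compared by the interaction given below, which was called for neither gene, so no difference between the days is drawn from these bounds. The mean of the 8 centred genes was 0.35 ± 0.06 in 18 flut, 0.36 ± 0.04 in 18 m and 0.37 ± 0.03 in 18 f (SD, n = 3 pools each), which differed by less than the spread between pools.

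Whether the effect of flutamide differed between the days was tested as an interaction, the GD18 difference minus the GD17 difference. None of the 8 genes was called, with 4 at an unadjusted p under 0.05 and a median of -0.39. The values were -0.75 for Dynlrb2 (standard error 0.26, adjusted p = 0.25, limma), -0.57 for Foxj1 (0.19, 0.24), -0.47 for Rsph1 (0.16, 0.23) and -0.41 for Tekt1 (0.15, 0.29). Over all probe sets 0.364% were called in this interaction. Without 17 m 2 it was called for Dynlrb2 (-1.06, adjusted p = 0.015, limma) and Rsph1 (-0.63, 0.036). That pool was the male pool of GD17 nearest to 17 flut in the mean of these genes. Leaving it out widens the GD17 difference by that choice, so nothing is drawn from these calls.

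**Figure D4:**
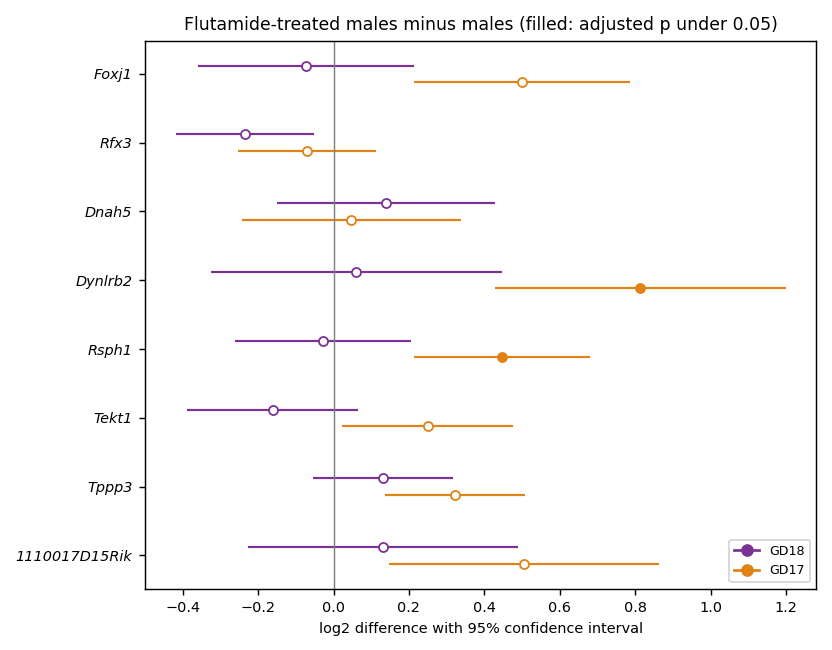
Log2 difference of flutamide-treated males minus males (x axis) of each gene (rows) at GD18 and GD17, with 95% confidence intervals from limma. Filled points have an adjusted p under 0.05, and at GD17 these are Dynlrb2 at 0.81 and Rsph1 at 0.45.

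Between the sexes no ciliated cell gene was called on either day. The median difference of males minus females was -0.03 at GD18 and -0.05 at GD17, and the background of calls in either direction was 1.85% and 4.1% of probe sets. At an unadjusted p under 0.05 there were 0 genes at GD18 and 1 at GD17, which was Dnah5, with 0.34 (adjusted p = 0.22, limma). Without 17 m 1, the lowest male pool for that gene, the GD17 difference of Dnah5 was called at 0.53 (adjusted p = 0.020, limma). Leaving out the lowest pool raises the male mean, so nothing is drawn from this call. Beside the females, the flutamide-treated males showed the same 2 genes at GD17 as beside the males, with Rsph1 higher in 17 flut than in 17 f by 0.50 (adjusted p = 0.024) and Dynlrb2 by 0.75 (0.036). Against 17 f, 2.66% of all probe sets were called higher, and no gene was called without any one of 17 flut 1, 17 flut 2, 17 flut 3, 17 f 2 or 17 f 3. Both comparisons share the pools of 17 flut. The dimmer probe set of Rfx3 was higher in 17 flut than in 17 f by 0.40 (adjusted p = 0.046). At GD18 no gene was called between 18 flut and 18 f by limma and 0 reached an unadjusted p under 0.05, with 0.278% of all probe sets called.

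Of the other genes of the motile cilium, more were called higher than lower over the days. The lists for dynein arms, dynein assembly, radial spokes with the central pair, and the axoneme tubule were counted together, with 73 further genes measured. Of these, 38 were called higher and 1 lower at GD18 in flutamide-treated males, 55 higher and 2 lower in males, and 49 higher and 6 lower in females. Over all 18193 genes 13%, 17.7% and 17.2% were called higher and 13.8%, 12.4% and 22.5% lower. Of the 55 genes higher in males and the 49 higher in females, 48 were shared, which is most of each list. The 55 and the 49 are 75.3% and 67.1% of the 73 genes, so a large overlap follows in part from the sizes of the lists. These 2 comparisons have no sample in common, but they come from the same fit with a shared estimate of spread. The median difference of the 73 genes was 0.37, 0.63 and 0.61, against -0.01, 0.03 and -0.01 over all genes. With 1 pool left out the count stayed between 28 and 35 in flutamide-treated males, 49 and 54 in males, and 47 and 48 in females. Many of these genes are dim. On the log2 scale the 73 averaged 6.23 in 17 flut, 5.97 in 17 m and 6.01 in 17 f. At GD18 they averaged 6.59 in 18 flut, 6.59 in 18 m and 6.57 in 18 f, against a median of 6.38 over all probe sets. With dim probe sets left out, fewer of these genes were tested and fewer were called, as given in the last section.

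Among 17 axonemal dynein genes, 9 were called higher at GD18 in flutamide-treated males, 11 in males and 10 in females, and none lower. Dnali1, a light intermediate chain of the inner arm, was higher by 0.88, 1.60 and 1.48, and Dnaic2, an intermediate chain of the outer arm, by 0.94, 1.35 and 1.47. The heavy chains Dnah2 (0.53, 1.01 and 0.62) and Dnah6 (0.72, 0.95 and 1.01) rose as well. The values in each bracket and series run from flutamide-treated males to males to females.

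Of 22 genes of the radial spokes, nexin link and central pair, 11, 17 and 16 were called higher and only Gas8 was called lower, in females. The spoke head gene Rsph4a, the partner of Rsph1, was higher by 1.17, 1.48 and 1.86, Ccdc113 by 0.73, 1.47 and 1.51, and Drc1, of the nexin link that ties the doublets, by 0.57, 0.93 and 0.99. Ccdc40, which sets the spacing of spokes along the doublet, was higher by 0.70, 0.75 and 1.14. The axoneme tubule list gave the largest shares, with 14, 22 and 19 of 25 called higher. It is named for the doublets but also holds other genes, such as the cadherins Cdhr3 and Cdhr4. Among those called higher were Fam183b (1.04, 1.74 and 1.77), the adenylate kinase Ak7 (0.96, 1.17 and 1.54), Morn5 (0.78, 1.25 and 0.89) and Cfap126 (0.59, 1.03 and 1.01). The 4 called lower in females were the tubulins Tuba1a and Tubb4b, which many cells use, with Cfap20 and Mns1. Of 9 dynein assembly factors 4, 5 and 4 were higher, such as Zmynd10 (0.42, 0.87 and 0.87) and Dnaaf4 (0.37, 0.97 and 0.70), while Dnaaf2 was lower in all 3 (-0.57, -0.58 and -0.98).

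Genes of the steps that precede the axoneme were counted in the same way. Of 10 measured regulators of the multiciliated cell other than Foxj1 and Rfx3, none was called higher at GD18 in any of the 3 kinds of fetus by limma, with 1, 1 and 0 higher at an unadjusted p under 0.05. A list of 10 genes is too short to tell 0 calls from the 13%, 17.7% and 17.2% of all genes called higher. Mcidas and Gmnc were not measured, and Foxj1 itself was called higher in males and females. Tfdp1, the partner of E2F factors also used in the cell cycle, was lower in all 3 kinds of fetus (-0.71, -0.74 and -1.07). Of 11 genes of centriole assembly 5, 4 and 4 were lower and 1, 2 and 1 higher, beside 13.8%, 12.4% and 22.5% of all genes lower. Those lower include Plk4 (-0.95, -0.71 and -0.89), Stil (-0.74, -0.62 and -1.01) and Sass6 (-0.74, -0.29 and -0.57), which dividing cells also need. Cetn4, a centrin of basal bodies, was higher in each (0.34, 0.68 and 0.58), and Cep63 was higher in males (0.30). Intraflagellar transport, used by primary and motile cilia alike, had 3, 6 and 4 of 23 genes higher and 2, 0 and 2 lower, and these shares of 13.0%, 26.1% and 17.4% higher stand beside the 13%, 17.7% and 17.2% of all genes. Ift172 was among the higher (0.35, 0.40 and 0.39).

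**Figure D5:**
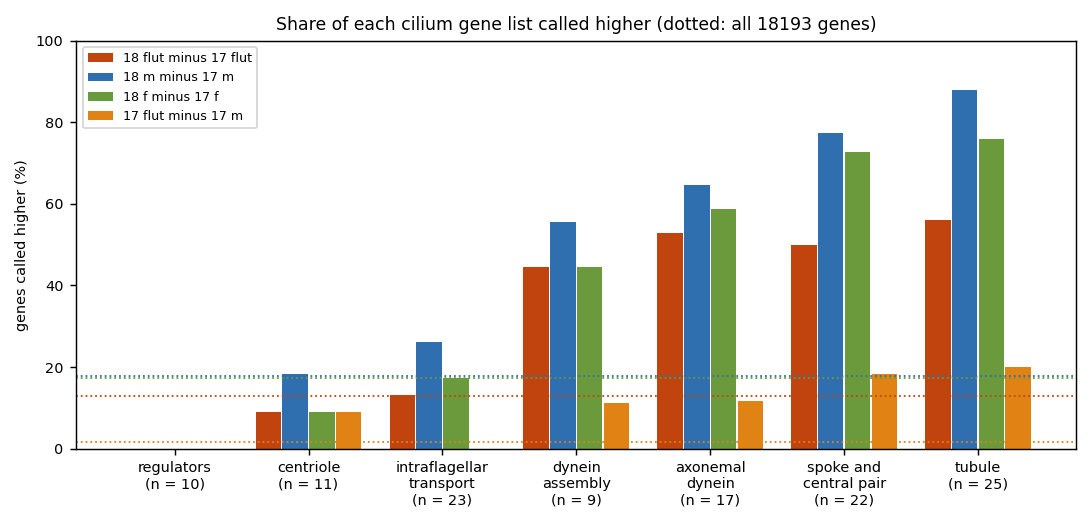
Share of the measured genes of each cilium list called higher (y axis, percent) at GD18 against GD17 in flutamide-treated males, males and females, and in 17 flut against 17 m. Dotted lines give the share over all 18193 genes, and the tubule list reaches 56%, 88% and 76% by day and 20% in 17 flut.

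The difference between 17 flut and 17 m was also present in these genes. Of the 73 genes 12 were called higher in 17 flut than in 17 m and none lower, against 1.69% of all genes higher and 1% lower, with a median of 0.23 against 0.04 over all genes. They were the dyneins Dnaic2 (0.74) and Dnali1 (0.83), the assembly factor Dnaaf1 (0.45), the spoke and link genes Rsph4a (0.47), Drc1 (0.32), Ccdc113 (0.66) and Cfap206 (0.55), and, from the tubule list, Tekt3 (0.49), Tekt4 (0.55), Cfap126 (0.58), Pifo (0.93) and Lrrc23 (0.69). Of these 12, 11 were also among the 49 called higher in 18 f against 17 f, all but Tekt3. Those 49 are 67.1% of the 73 genes, so a large overlap follows in part from the size of that list. The 2 comparisons have no pool in common, but they come from the same fit with a shared estimate of spread. Pools that carry pancreas genes, 17 m 3 in the former and 17 f 2 and 17 f 3 in the latter, enter both. The count was 20 without 17 m 2 and between 1 and 5 without any other single pool of 17 flut or 17 m, 4 without 17 f 2, 17 f 3 and 17 m 3, and 2 when only 17 flut and 17 m entered the fit. At GD18, of the 73 genes only Cfap43 was higher in 18 flut than in 18 m (0.32), and Mns1 (-0.47) and Ccdc39 (-0.45) were lower, beside 0.555% of all genes higher and 3.67% lower, and without 18 flut 3 no gene was called higher. Outside the axoneme, Ift74 was lower in 18 flut by 0.97 (adjusted p = 0.00018, limma) and Ift81, its partner in the transport complex, by 0.29 (0.028). Ift74 and Mns1 were also called higher in 18 m than in 18 f, and neither was called between 18 flut and 18 f.

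Of 16 genes of Notch signalling, which steers the choice between secretory and ciliated cells, 6 were called higher at GD18 in flutamide-treated males, 7 in males and 7 in females, and only Lfng was called lower, in females, beside the 13%, 17.7% and 17.2% of all genes called higher. The ligand Dll4, which vessels also make, was higher by 0.61, 0.57 and 0.89, and the target Hey1 by 0.49, 0.59 and 0.70. No Notch gene was called in 17 flut against 17 m by limma, with 1 of the 16 at an unadjusted p under 0.05. The secretory neighbours of ciliated cells rose as well, with all 5 club cell genes higher at GD18 in every kind of fetus, as were all 7 genes of alveolar type II cells. None of the 4 basal cell genes was called by day, with Trp63 at -0.06, -0.48 and -0.49, Krt5 at 0.47, -0.60 and -0.50, Krt14 between -0.07 and 0.56 and Krt15 at 0.78, 0.60 and 0.65. Krt5 stood at 8.76, 8.62 and 8.55 in 17 f 2, 17 f 3 and 17 m 3, which carry pancreas genes. It stood at 6.89, 7.20 and 7.24 in 17 f 1, 17 m 1 and 17 m 2. Trp63 was at 6.82, 7.01 and 7.08 in the former pools and at 5.58, 5.80 and 5.73 in the latter. The part of these pools in the day differences was not tested.

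The 8 genes were not equally alike. Over the 18 pools, the Pearson correlation of each gene with the mean of the 7 others was 0.99 for Dynlrb2, 0.98 for Rsph1 and 1110017D15Rik, 0.94 for Tppp3, 0.92 for Foxj1 and 0.89 for Tekt1, but 0.59 for Dnah5 and 0.26 for Rfx3. Much of this is the difference between the days, which all pools of a day share. Within the 9 pools of GD17 it was 0.99 for Dynlrb2, 0.92 for Foxj1 and 0.87 for Tppp3, and within the 9 pools of GD18 0.64, -0.16 and -0.04, where the genes varied little.

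Among 11376 other genes with a mean at or above the median, the 12 whose profile was most like the mean of the 8 had correlations of 0.987 to 0.995 over the 18 pools. Of these, Fam183b, Lrrc23, Dnali1, Hoatz and Cfap126 are known from motile cilia and sperm tails. The others include Ctsh, the cathepsin that cuts surfactant protein precursors, Fmo2, a monooxygenase of lung, Hsd11b1, which regenerates active glucocorticoid, and the acute phase protein Hp. Tmem213, AU021092 and Il18r1 complete the 12. In 17 flut against 17 m, 9 of these 12 were called higher, all but Fam183b, Fmo2 and Hsd11b1, which describes the choice, since they were ranked on the same pools. The inverted pair of the X-box was in the windows of Fam183b, Lrrc23 and Il18r1, 3 of 9 with a window, and in 27 of 65 genes with a window among the 73 of the motile cilium (41.5%), against 5.94% of all genes.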

How the data were processed

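Lung RNA of 18 pools was measured on MOE430 2.0 arrays. The authors extracted the images with GCOS and summarised the probes by RMA, and the deposited values are RMA intensities on a linear scale, which were put back on the log2 scale here. RMA makes the arrays share one distribution, and array medians lay between 81.2 and 84.8. The file holds 45101 probe sets, of which 64 control probe sets were left out. In the platform annotation of 2016, 34945 of the remaining 45037 carry 1 gene symbol, 932 several and 9160 none, and probe sets with several symbols named no gene. A gene is given by its probe set of highest mean over the 18 arrays.

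One limma (3.58.1, R 4.3.3) fit held all 6 groups and 18 arrays, with empirical Bayes moderation and Benjamini-Hochberg adjustment over 45037 probe sets within each comparison, and a call is an adjusted p under 0.05. Replicates were pools of different fetuses. In data simulated for 17 flut minus 17 m on 45037 probe sets, 45 of 66 changes of 0.5, 62 of 66 of 1 and 66 of 68 of 2 on the log2 scale were recovered, with 10 false calls. The simulated noise was independent between probe sets, and each probe set had the same SD in every group. In the data the median SD of the 8 genes was 0.31 in 17 m and 0.10 in 17 flut, and genes of a pool shifted together. The simulated counts therefore need not hold for the measured pools. Figures were drawn with matplotlib 3.10.9 in Python 3.11.15.

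The 8 genes and the gene lists were chosen with earlier results of these data known. Genes named are the 8, up to 4 of each list with the smallest p and the 12 most like the mean of the 8. All others (among them Tekt3, Tekt4, Pifo, Lrrc23, Cfap206, Cfap43, Ccdc39, Mns1, Gas8, Cep63, Ift81, Lfng, Tuba1a, Tubb4b, Cfap20, Trp63, Scgb1a1, Slc34a2 and Napsa) were chosen after their values were seen. Other normalizations, filters, weights, blocks and left-out pools were tried as alternatives. The number of arrays per group limits the precision.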

Additional observations from a re-analysis of the deposited data

Results flagged for a closer look

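Of 125 genes of the cilium lists, 3 had a day difference that was not the same in the sexes by a test of the interaction (18 m minus 18 f, less 17 m minus 17 f, limma), and 0 had a flutamide by day interaction by the same test, with 42 at an unadjusted p under 0.05. All 3 interactions were positive, and over all 18193 genes 3.89% had a called positive one, so the share of the cilium genes was not above that of all genes. Mns1, a filament protein of the doublets, gave 0.86 (standard error 0.13, adjusted p = 0.00058), being higher in 18 m than in 18 f by 0.47 and lower in 17 m than in 17 f (-0.39). Its log2 intensities were 7.28, 7.16 and 7.37 in 18 m, 6.85, 6.92 and 6.61 in 18 f, 6.90 to 7.09 in 17 m and 7.32, 7.40 and 7.42 in 17 f, so that the sexes did not overlap on either day and exchanged order. Gas8, of the nexin link, gave 0.40 (standard error 0.10, adjusted p = 0.025), and its dimmer probe set -0.22 (0.44). Cep63, of the centriole, gave 0.44 (standard error 0.13, adjusted p = 0.048), while its dimmer probe set gave -0.43 (adjusted p = 0.032), so the probe sets of this gene disagree. The pools 17 f 2, 17 f 3 and 17 m 3, which carry pancreas genes, enter all 3 values, and their part was not tested.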

How the results depend on the processing

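The counts of ciliated cell genes called by day stayed within 1.5 times under every alternative run. In 17 flut minus 17 m the 2 calls became 4 with quantile normalization applied again, cyclic loess, weights on arrays, dim probe sets left out or without 18 m 3 and 18 flut 3, 6 at an unadjusted p under 0.05, 1 with an indicator of 17 f 2, 17 f 3 and 17 m 3, 0 without those 3 pools, with only the groups compared or at an adjusted p under 0.01, and 0 to 5 with 1 pool left out. In 17 flut minus 17 f the 2 calls became 6 unadjusted or with array weights, 4 with only the groups compared, 0 at 0.01, without those 3 pools or with their indicator, and 0 to 2 with 1 pool left out. The 0 calls became 1 in 18 flut minus 18 m unadjusted or with array weights (Rfx3), 1 in 17 m minus 17 f and in the sex by day interaction unadjusted (0 to 1 with 1 pool left out), and 4 in the flutamide by day interaction unadjusted (0 to 2). Values that changed sign were all uncalled. In 17 flut minus 17 m, Dnah5 was -0.013 by quantile and -0.021 by loess (-0.15 to 0.16 with 1 pool left out), and Rfx3 0.030 by the median of its probe sets. In 18 flut minus 18 m, Rsph1 was 0.028 by quantile and 0.011 by loess (-0.0949 to 0.016 with 1 left out), and without 18 m 3 and 18 flut 3 Dynlrb2 was -0.019, Foxj1 0.0054 and 1110017D15Rik -0.087 (with 1 left out, -0.014 to 0.12 for Dynlrb2 and -0.18 to 0.018 for Foxj1). Dnah5 ranged from -0.11 to 0.20 in 18 m minus 17 m, and in the flutamide by day interaction it was -0.00072 with the indicator and -0.016 to 0.29 with 1 left out. Rfx3 in 18 flut minus 17 flut was 0.014 without 18 m 3 and 18 flut 3 (-0.0748 to 0.014 with 1 left out). The cause was not tested. Of the 73 motile cilium genes, the filter on dim probe sets left 7 called in 17 flut minus 17 m in place of 12 (1 at an adjusted p under 0.01, 36 unadjusted, 7 with the indicator), and by day 14 in flutamide-treated males, 19 in males and 17 in females, since fewer genes were tested. Same-numbered pools correlated above 0.1 in 12 of 45 pairs and in no pair of groups throughout, so the numbers do not pair the pools. With the replicate block the counts of calls were 2, 0, 0, 0, 2, 0, 6, 7, 4, 0 and 0 over the 11 comparisons, the same counts as without it.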
